A study of Rattus norvegicus with 24 samples.

Results

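ABC transporters are membrane proteins that use ATP to carry substrates across a membrane, and were followed here as the 41 array probes whose platform symbol starts with Abca, Abcb, Abcc, Abcd, Abce, Abcf or Abcg and a digit. These probes stand for 38 genes, among 22523 probes on the array, of which 13793 carry a gene symbol. Transcripts were measured on 24 Illumina rat arrays of epithelial cells that were shaken loose from the proximal and distal colon with calcium chelators. The animals were Sprague Dawley rats aged 8 months. Control-born rats on chow (CND) gave 6 samples and control-born rats on a high-fat diet (CHFD) 5. Rats born with intra-uterine growth retardation (IUGR) gave 6 samples on chow (RND) and 3 on the high-fat diet (RHFD). The sources used here do not give how growth retardation was produced, the sex of the rats, or the fat content and duration of the diet.

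Most ABC proteins pump substrates out of the cytosol: drugs and conjugated metabolites in the ABCC subfamily and ABCG2, cholesterol and phospholipids in much of the ABCA and ABCG subfamilies. Others work on organelles, where ABCD proteins bring fatty acyl-CoAs into peroxisomes and several ABCB proteins serve mitochondria and lysosomes. ABCE1 and the ABCF proteins have no membrane domain and act on ribosomes. In the gut, apical pumps such as ABCG2 return xenobiotics to the lumen, while basolateral pumps such as ABCC3 hand conjugates and bile salts to the blood.

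Each group had 6 arrays, 3 on each of the 2 chips. A title number stands on a pair of arrays, 1 per chip, in 4 cases: 10B of CHFD, and 3A, 21B and 25B of RHFD. Arrays that share a title number were counted as 1 sample, since nothing in the labels says that they are separate animals. Over the 25 tested ABC probes such arrays differed with an SD of 0.28 to 0.32 on the log2 scale. All chip 1 titles of CND end in A and all its chip 2 titles in B, a letter that the labels do not explain and that cannot be told apart from the chip there. The letters are also spread unevenly over the groups. Every RND title number holds B, while the other groups hold both letters. Between 8303 and 9872 probes were detected per array, with median raw signals of 92 to 112. The p-values measure the spread between these samples, and nothing in the labels says which cages or litters the rats came from.

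On the high-fat diet, averaged over both birth groups, 5 of the 25 tested ABC probes passed the threshold, an adjusted p under 0.05 in limma with Benjamini-Hochberg adjustment over all tested probes. Abcg1, which moves cholesterol out of cells, rose 1.60-fold (95% confidence interval 1.34 to 1.90). Lower on the diet were Abcb9 (1.59-fold), Abcc5 and Abcg2 (1.42-fold each) and Abcb6 (1.39-fold). Of all 10193 tested probes, 4.28% passed the same threshold, 2.54% higher and 1.74% lower. No ABC probe passed in any comparison of IUGR with control rats.

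Detection was judged for each probe on each array from the deposited detection p-value, with 0.05 as the threshold. Of the 41 ABC probes, 18 were detected on all 24 arrays, 7 on 6 to 23 arrays, 3 on 1 to 5 and 13 on none. The 25 probes detected on at least 6 arrays were tested, and each stands for a different gene. The other 13 genes had no tested probe. Abcb1a, a P-glycoprotein gene, and Abcc2, an apical conjugate pump, have no symbol in the platform table used here. Abcc4, Abcb11 and Abcf1 also lack one, and these genes were not analysed here.

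A level is the background-corrected, quantile-normalized log2 intensity of a probe, and probes differ in brightness for reasons of sequence, so levels were not used to rank transcripts. The brightest probes were those of Abcd3 (mean level over all samples 12.05), Abcc3 (11.84), Abcg2 (11.31), Abcb6 (9.42) and Abcb9 (9.14). Among the probes detected on no array, levels lay between 4.30 and 4.54. These included the sterol exporters Abcg5 and Abcg8, which work as a heterodimer at the apical membrane. They also included both probes of Abcb4, the phosphatidylcholine exporter of bile canaliculi, and Abcb1b, a P-glycoprotein gene. The remaining ones were Abca5, Abca8a, Abca13, Abca17, Abcc12, Abcd2 and a second probe each of Abcc10 and Abcg3l4. Abca4 was detected on 2 arrays, both RND, Abcc1 on 2 and Abcc9 on 1.

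**Figure D1:**
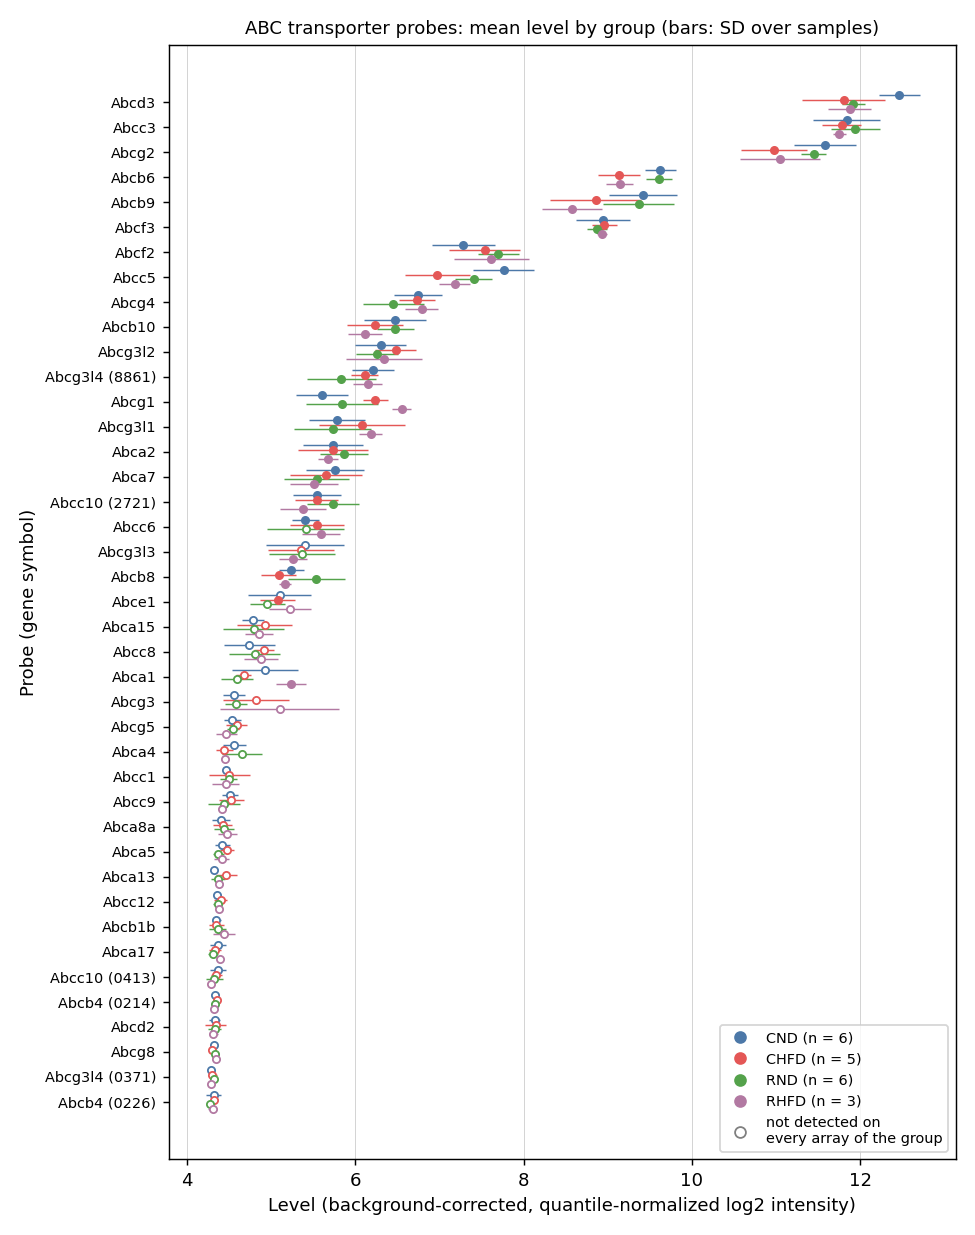
Mean level (log2 intensity, x axis) of each of the 41 ABC probes (y axis) in CND, CHFD, RND and RHFD, with bars for the SD over samples. Open circles mark groups in which the probe was not detected on every array, and digits after a symbol are the last 4 of the probe number where a gene has several probes. The brightest probe is Abcd3 at a mean of 12.05, and the undetected probes lie between 4.30 and 4.54.

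Sequences upstream of the genes were taken from RefSeq (GRCr8), which held a promoter entry for 32 of the 38 genes. The 250 bases before the gene start are shown for Abcb6, Abcb9 and Abcg2, the members that were lower on the high-fat diet and have an entry. Capitals mark matches to 5 motifs searched on both strands: the GC box GGGCGG, the E-box CACGTG, the nuclear receptor half-site AGGTCA, the TATA box TATAAA and CCAAT.
Abcb6 (GRCr8 chr9:84125501-84125750, minus strand): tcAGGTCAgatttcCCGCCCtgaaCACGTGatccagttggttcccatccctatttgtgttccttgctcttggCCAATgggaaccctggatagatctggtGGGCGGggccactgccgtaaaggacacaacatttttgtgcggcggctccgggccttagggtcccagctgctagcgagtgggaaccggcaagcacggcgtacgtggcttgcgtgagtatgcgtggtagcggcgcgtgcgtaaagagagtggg
Abcb9 (GRCr8 chr12:38159902-38160151, plus strand): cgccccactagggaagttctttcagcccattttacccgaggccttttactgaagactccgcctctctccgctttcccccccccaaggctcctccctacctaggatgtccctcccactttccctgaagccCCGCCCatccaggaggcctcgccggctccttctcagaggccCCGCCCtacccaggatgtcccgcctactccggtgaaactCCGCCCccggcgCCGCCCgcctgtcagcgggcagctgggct
Abcg2 (GRCr8 chr4:89075224-89075473, plus strand): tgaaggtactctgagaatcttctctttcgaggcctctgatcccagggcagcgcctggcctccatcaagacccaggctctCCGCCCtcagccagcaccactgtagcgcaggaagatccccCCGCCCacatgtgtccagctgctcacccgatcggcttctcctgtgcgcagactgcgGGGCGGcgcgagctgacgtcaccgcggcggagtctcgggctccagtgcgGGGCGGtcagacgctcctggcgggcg

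The Abcb6 sequence held 2 GC boxes, and an E-box, a half-site and a CCAAT match. The Abcb9 and Abcg2 sequences held 4 GC boxes each and no match to the other motifs. A GC box stood in 21 of the 32 ABC sequences (65.6%), against 30.5% of all 33469 promoter entries. The median GC content was 58.4% in the ABC sequences and 51.2% in all. The half-site stood in 15.6% against 14.1%, CCAAT in 37.5% against 34%, TATA in 12.5% against 12.9%, and the E-box in 9.38% (3 genes) against 5.59%. All promoter entries were taken, without regard to the type of gene. The ABC sequences are not independent of one another. Those of Abcg3l1, Abcg3l2, Abcg3l3 and Abcg3l4 resemble each other, and each holds a GC box. Those of Abcg5 and Abcg8 overlap, and each holds a TATA match. A match describes these letters and is not a measured binding site.

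Export of drugs and conjugates was covered by 9 probes of 8 genes, of which 5 were tested. Averaged over both birth groups, 2 of the 5 were lower on the high-fat diet, Abcc5 and Abcg2, and 0 were higher. Among all tested probes 1.74% passed as lower and 2.54% as higher. The median log2 difference of the 5 was -0.18, against -0.00156 over all tested probes. Abcc5 (probe ILMN_1349461), an exporter of cyclic nucleotides and other organic anions, had levels of 7.25 to 8.38 in CND, with a median of 7.75. In CHFD its levels were 6.89 (10B), 7.52 (22B), 7.03 (28B), 7.01 (4A) and 6.43 (8B). All CHFD samples except 22B lay below every CND sample. In control rats Abcc5 fell by 0.79 on the log2 scale (SE 0.16, adjusted p = 0.00958 in limma), a 1.73-fold decrease (1.37 to 2.17). Without background correction it fell by 0.52 (adjusted p = 0.0111). Chip 1 alone gave -0.87 (adjusted p = 0.0755) and chip 2 alone -0.73 (0.419), and the adjusted p was 0.0694 with only these 2 groups in the model.

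In IUGR rats the Abcc5 groups overlapped. RND ran from 7.07 to 7.61 with a median of 7.49, and RHFD had 6.97 (21B), 7.32 (25B) and 7.26 (3A). The log2 difference was -0.22 (SE 0.18, 95% interval -0.60 to 0.15, adjusted p = 0.76). The difference between both diet effects was 0.56 (SE 0.24) and did not pass (unadjusted p = 0.0292, adjusted p = 0.972). Averaged over birth groups Abcc5 fell by 0.51 (SE 0.12, adjusted p = 0.0148), or by 0.34 without background correction (adjusted p = 0.0136). The averaged call ended without RHFD 21B (adjusted p = 0.0843) and on chip 1 (-0.53, 0.134) or chip 2 (-0.50, 0.149) alone.

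Abcg2 (ILMN_1362628), the breast cancer resistance protein, returns drugs, urate and dietary toxins to the gut lumen. Its levels ran from 10.95 to 12.05 in CND, with a median of 11.61, and from 11.25 to 11.58 in RND, with a median of 11.52. CHFD gave 10.81 (10B), 11.15 (22B), 10.68 (28B), 11.57 (4A) and 10.64 (8B), so that 3 of 5 samples lay below every CND sample. RHFD gave 11.22 (21B), 10.52 (25B) and 11.42 (3A), with 2 of 3 below every RND sample. Over both birth groups Abcg2 fell by 0.50 (SE 0.14, adjusted p = 0.0449), close to the threshold. The separate differences, -0.61 in controls (SE 0.19, adjusted p = 0.125) and -0.39 in IUGR rats (SE 0.22, adjusted p = 0.592), did not pass.

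The averaged call of Abcg2 depended on single samples. The adjusted p was 0.224 without RHFD 25B (difference -0.37) and 0.0826 without RHFD 21B. It was 0.0759 without CHFD 10B, 0.0543 without 22B, 0.0855 without 28B and 0.0837 without 8B. Leaving out a CND sample gave 0.0719 (14A), 0.0571 (20A), 0.0556 (32B), 0.0686 (36B) or 0.0704 (38B). Leaving out an RND sample gave 0.0703 (19B), 0.0694 (33B), 0.0724 (35B) or 0.0749 (37B). The difference of Abcg2 was -0.48 on chip 1 and -0.55 on chip 2, with an adjusted p of 0.219 on each.

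Abcc3 (ILMN_1351428), the basolateral pump for glucuronides and bile salts, had mean levels of 11.84 ± 0.40 (SD, n = 6) in CND and 11.78 ± 0.23 (n = 5) in CHFD. In RND the mean was 11.94 ± 0.29 (n = 6) and in RHFD 11.75 ± 0.08 (n = 3). The diet difference was -0.06 in controls (95% interval -0.41 to 0.29) and -0.19 in IUGR rats (-0.59 to 0.21). Abcc10 (ILMN_1352721), a broad anion exporter, differed by -0.35 in IUGR rats (SE 0.19, adjusted p = 0.561). Its interaction of birth status with diet was -0.35 (SE 0.25, adjusted p = 0.972). Abcc6 was detected on 23 arrays and did not pass in any comparison.

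Export of sterols, phospholipids and bile salts was covered by 8 probes of 7 genes, of which 4 were tested: Abca1, Abca7, Abcg1 and Abcg4. Abcg1 (ILMN_1354046) hands cholesterol to high-density lipoprotein and is abundant in macrophages. Its levels in CND ran from 5.31 to 6.13, with a median of 5.49. CHFD gave 6.28 (10B), 6.03 (22B), 6.20 (28B), 6.43 (4A) and 6.26 (8B). All CHFD samples except 22B lay above every CND sample. RND ran from 5.20 to 6.49, with a median of 5.83, and RHFD gave 6.54 (21B), 6.45 (25B) and 6.67 (3A). RND 17B lay between RHFD 25B and 21B, and every other RND sample lay below all RHFD samples.

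With birth groups averaged, Abcg1 rose by 0.67 (SE 0.12, adjusted p = 0.00134). The increase was 0.30 without background correction (adjusted p = 0.00207). Chip 1 alone gave 0.58 (adjusted p = 0.0876) and chip 2 alone 0.77 (0.0182). In control rats the difference was 0.64 (SE 0.16, adjusted p = 0.0485) and in IUGR rats 0.71 (SE 0.19, adjusted p = 0.0667), which did not pass. Without RND 17B the difference in IUGR rats was 0.82 (adjusted p = 0.024), and it also passed with no detection filter (0.0487).

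The call of Abcg1 in control rats ended under 25 of 30 alternatives. Without background correction the difference was 0.27 (adjusted p = 0.0748), and under median scaling 0.53 (0.156). It was 0.59 on chip 1 (0.206) and 0.70 on chip 2 (0.419). Leaving out a CHFD sample gave an adjusted p of 0.0975 (10B), 0.122 (4A), 0.0719 (22B), 0.0557 (28B) or 0.079 (8B). Leaving out a CND sample gave 0.126 (14A), 0.132 (18A), 0.0592 (32B) or 0.0862 (38B). Leaving out an RHFD sample gave 0.0745 (21B), 0.0597 (25B) or 0.0693 (3A), and an RND sample 0.0623 (19B), 0.0594 (33B), 0.0606 (37B) or 0.0554 (39B).

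Markers of macrophages and dendritic cells, like Abcg1, were higher on the high-fat diet. On the high-fat diet averaged over birth groups, 2.54% of all tested probes passed as higher. The 6 tested markers, Aif1, C1qa, C1qb, C1qc, Cd14 and Fcer1g, were all among these, with a median of 1.29. Only 4 of the 6 were detected on every array. The others could meet the filter through high-fat arrays, so the count is not independent of it. Their mean level per sample ran from 5.99 to 7.25 in CND, from 7.63 to 8.21 in CHFD, from 6.48 to 7.82 in RND and from 7.90 to 8.78 in RHFD. Neither macrophage marker Cd163 nor Mrc1 was detected on any array. In RND 17B, the chow sample with the highest Abcg1 level (6.49), the marker mean was 7.54. RND 33B had the highest marker mean of the chow samples (7.82) with Abcg1 at 5.91, and RND 39B had 7.49 with Abcg1 at 5.69. The part of these cells in the Abcg1 result was not tested. In bulk samples such as these, a different number of cells of a type and a different amount of RNA per cell cannot be told apart.

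**Figure D2:**
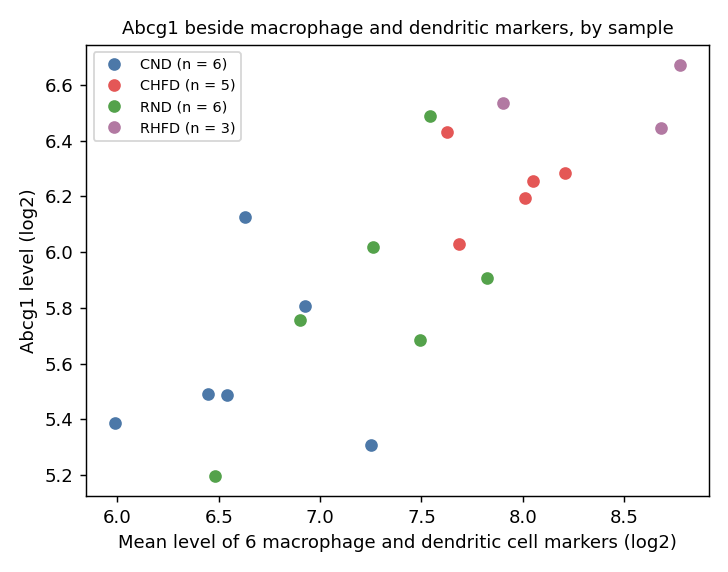
Level of Abcg1 (y axis, log2 intensity) against the mean level of the 6 tested macrophage and dendritic cell markers (x axis, log2 intensity), with 1 point per sample and colours for the groups. The CND marker means run from 5.99 to 7.25 and those of RHFD from 7.90 to 8.78, and RHFD also holds the highest Abcg1 level (6.67).

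Abca1 (ILMN_1650701), which loads cholesterol and phospholipid onto apolipoprotein A-I, lay near background. It was detected on 4 of 6 CND arrays, 1 of 6 CHFD, 2 of 6 RND and 6 of 6 RHFD. Levels ran from 4.52 to 5.59 in CND (median 4.92) and from 4.38 to 4.82 in RND (median 4.58). CHFD gave 4.69 (10B), 4.72 (22B), 4.78 (28B), 4.53 (4A) and 4.66 (8B), and RHFD 5.43 (21B), 5.21 (25B) and 5.08 (3A). RHFD lay above all RND and all CHFD samples, and overlapped with CND. The share of all tested probes with no overlap between RHFD and CHFD was not counted. The diet difference was -0.25 in controls (SE 0.18, adjusted p = 0.706) and 0.65 in IUGR rats (SE 0.20, adjusted p = 0.168), and neither passed.

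The interaction of Abca1, the diet difference in IUGR rats minus that in controls, was 0.90 (SE 0.27). It had the smallest p of the ABC probes in that comparison (unadjusted p = 0.00267) and did not pass (adjusted p = 0.972). Without background correction it was 0.31, and it was 1.20 on chip 1 and 0.59 on chip 2. Within the high-fat diet IUGR rats differed from controls by 0.57 (SE 0.21, adjusted p = 1). Abca1 and Abcb6 were the 2 of 25 ABC probes with no overlap between RHFD and RND samples, and 5.99% of all tested probes showed no overlap. None of the 25 separated CHFD from CND completely, as 1.71% of all tested probes did.

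Abcg4, a cholesterol exporter known from brain, had mean levels of 6.45 ± 0.36 (SD, n = 6) in RND and 6.79 ± 0.20 (n = 3) in RHFD. Its difference in IUGR rats, 0.34 (SE 0.21, adjusted p = 0.644), did not pass. Abca7, a phospholipid transporter, differed by -0.10 in controls (95% interval -0.60 to 0.40) and -0.03 in IUGR rats (-0.60 to 0.54). Of the other ABCA lipid transporters, 7 probes of 7 genes, Abca2 and Abca15 were tested, and neither passed.

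All 4 ABCB probes for transporters of mitochondria and lysosomes, Abcb6, Abcb8, Abcb9 and Abcb10, were detected on every array. Averaged over birth groups 2 of the 4 were lower on the high-fat diet and 0 higher, with a median of -0.39. Among all tested probes 1.74% passed as lower and 2.54% as higher. Abcb6 (ILMN_1355792), a porphyrin transporter, had levels of 9.39 to 9.84 in CND (median 9.58) and 9.34 to 9.81 in RND (median 9.60). CHFD gave 9.49 (10B), 9.02 (22B), 8.79 (28B), 9.18 (4A) and 9.18 (8B), and RHFD 9.31 (21B), 9.01 (25B) and 9.10 (3A). All high-fat samples except CHFD 10B lay below every chow sample of the same birth group.

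Abcb6 fell by 0.48 averaged over birth groups (SE 0.10, adjusted p = 0.00493), and none of the samples left out in turn ended this call. Within a chip the averaged difference was -0.52 (chip 1, adjusted p = 0.106) and -0.38 (chip 2, 0.17). The separate differences were -0.48 in controls (SE 0.13, adjusted p = 0.0699) and -0.47 in IUGR rats (SE 0.15, adjusted p = 0.188), and neither passed. In controls the difference was -0.58 without CHFD 10B (adjusted p = 0.0325) and -0.43 without background correction (0.0367), which both passed. It also passed without RND 17B, at an adjusted p of 0.05 when rounded.

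Abcb9 (ILMN_1351742) carries peptides into lysosomes. Levels ran from 8.73 to 9.80 in CND (median 9.51) and from 8.91 to 10.15 in RND (median 9.27). CHFD gave 9.46 (10B), 8.93 (22B), 8.04 (28B), 9.18 (4A) and 8.66 (8B), and RHFD 8.33 (21B), 8.41 (25B) and 8.98 (3A). The groups overlapped in both birth groups. Averaged over them Abcb9 fell by 0.67 (SE 0.18, adjusted p = 0.0295). The call ended without CHFD 28B (-0.57, adjusted p = 0.0566), RHFD 21B (-0.61, 0.114) or RHFD 25B (-0.63, 0.104). Within a chip the difference was -0.62 (chip 1, 0.368) and -0.64 (chip 2, 0.059). In IUGR rats Abcb9 differed by -0.79 (SE 0.27, adjusted p = 0.234) and did not pass.

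Abcb10 (ILMN_1376292), a mitochondrial inner membrane protein needed for heme formation, differed by -0.30 averaged over birth groups (SE 0.16, adjusted p = 0.422). Abcb8 (ILMN_1366035), also mitochondrial, had a mean level of 5.24 ± 0.15 (SD, n = 6) in CND and 5.54 ± 0.34 (n = 6) in RND. Its difference between these groups, 0.30 (SE 0.21, adjusted p = 0.564), did not pass.

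**Figure D3:**
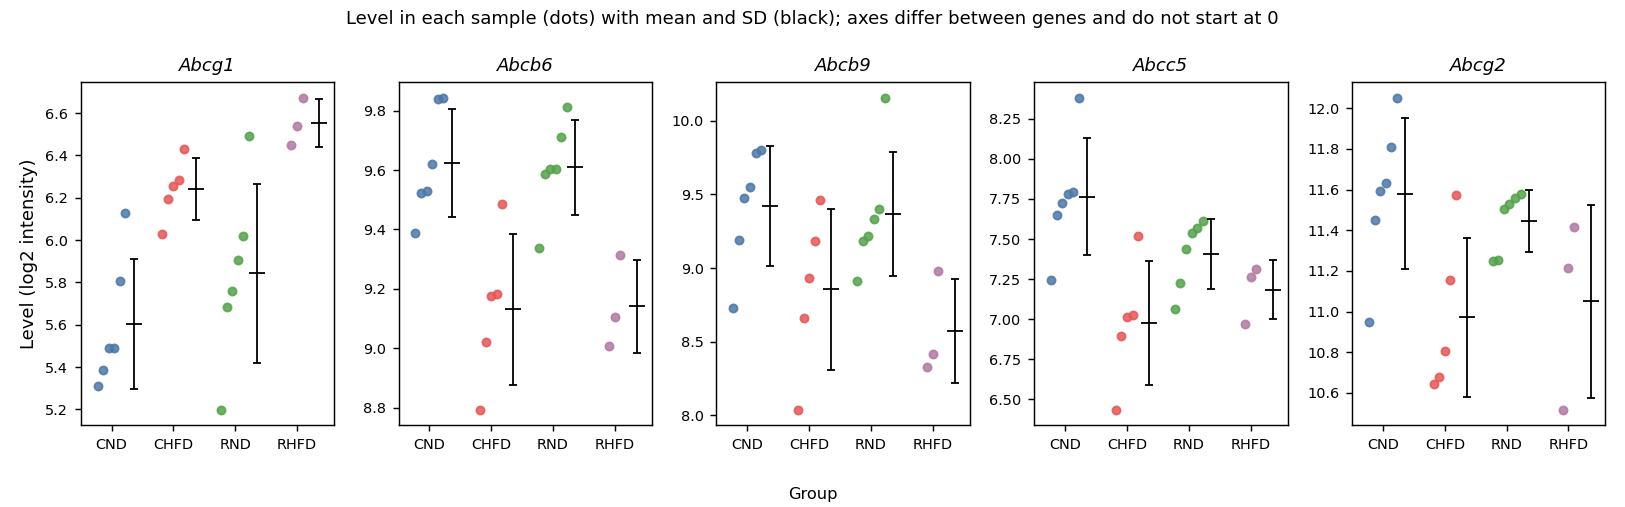
Level (log2 intensity, y axis) of Abcg1, Abcb6, Abcb9, Abcc5 and Abcg2, the ABC probes that passed for the high-fat diet averaged over birth groups, with a dot per sample and the mean and SD in black. Axes differ between panels. The Abcg1 samples of RHFD run from 6.45 to 6.67, above all RND samples but 17B (6.49), and those of Abcb6 from 9.01 to 9.31, below all RND samples.

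Markers of other cells changed in the same comparison that held these calls, in which 2.54% of all tested probes passed as higher and 1.74% as lower. Over both birth groups 10 of 10 tested T and natural killer cell markers were higher on the high-fat diet. Among them was Cd8a (2.18, adjusted p = 0.000489 in limma), while Cd4 and Cd5 were detected on no array. Only 5 of the 10 were detected on every array. The others could meet the filter through high-fat arrays, so the count is not independent of it. In controls 7 of the 10 passed as higher, where 0.961% of all tested probes did. In IUGR rats 0 passed, against 0.883% of all. Their mean per sample ran from 5.20 to 6.31 in CND, 6.69 to 9.09 in CHFD, 5.53 to 7.49 in RND and 7.34 to 7.81 in RHFD. CHFD 8B stood at 9.09 and the next CHFD sample, 28B, at 7.23. The 2 tested B and plasma cell markers did not pass, with an averaged median of 0.02. Their median diet difference was 0.46 for control rats and -0.42 for IUGR rats. Of the 4 tested mast cell markers 3 were higher, and 2 of the 4 were detected on every array, so the same limit holds. In controls 1 of these 4 passed and in IUGR rats 0. Vim, the only tested stromal marker, was higher by 0.93 (adjusted p = 0.0193 in limma). Of the stromal markers, Col3a1, Lum, Pdgfra and Tagln were detected on no array. None of the 10 epithelial markers, all detected on every array, passed (median 0.09), and 0 of 3 endothelial markers did. The mean of the surface colonocyte markers ran from 11.70 to 12.91 in CND, 11.41 to 12.40 in CHFD, 11.68 to 12.36 in RND and 11.67 to 11.89 in RHFD. Of these, Aqp8 (-3.30, adjusted p = 0.000356) and Slc16a1 (-0.69, adjusted p = 0.033) were lower and 0 of 10 higher. The mean of the crypt proliferation markers ran from 6.58 to 7.74 in CND, 6.22 to 7.62 in CHFD, 7.04 to 7.40 in RND and 6.65 to 6.82 in RHFD. Every RHFD sample thus lay below every RND sample. Of all single tested probes 5.99% showed no overlap between these groups, and the share of list means that do so was not counted. Averaged over birth groups 1 of the 15 tested crypt proliferation probes, Cdk1, was lower (-0.77, adjusted p = 0.0394 in limma) and 0 higher, with a median of -0.23. In IUGR rats the median was -0.42, and 0 of the 15 passed. Lgr5 and Ccnb1 were detected on no array. Of the goblet cell markers Retnlb and Clca1 were higher and Spink4 lower. The part of these cells in the decreases of Abcc5, Abcg2, Abcb6 and Abcb9 was not tested.

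Of the peroxisomal and cobalamin transporters, Abcd3 (ILMN_1357729) was tested and Abcd2 was detected on no array. Abcd3 brings branched fatty acyl-CoAs and bile acid precursors into peroxisomes. Its levels ran from 12.09 to 12.85 in CND (median 12.47) and from 11.75 to 12.09 in RND (median 11.92). CHFD gave 11.41 (10B), 12.12 (22B), 11.49 (28B), 12.52 (4A) and 11.48 (8B), and RHFD 12.14 (21B), 11.63 (25B) and 11.86 (3A). CHFD 22B and 4A overlapped with CND, and the other 3 samples lay below it. In controls Abcd3 differed by -0.67 on the high-fat diet (SE 0.18) and narrowly did not pass (adjusted p = 0.0585).

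The side of the threshold on which Abcd3 lay depended on the setting. Without CHFD 4A the difference in controls was -0.85 (adjusted p = 0.00831). It also passed without CHFD 22B (0.049), CND 20A (0.0466) or RND 17B (0.0495), on chip 1 (-0.83, 0.0345), under median scaling (-0.81, 0.0496), with arrays of a title number averaged (0.0429) and with no chip term (0.0462). On chip 2 the difference was -0.62 (0.657). In IUGR rats the diet difference was -0.04 (95% interval -0.46 to 0.37). On chow IUGR rats differed from controls by -0.55 (SE 0.17, unadjusted p = 0.00352), with 5 of 6 RND samples below every CND sample, and this did not pass (adjusted p = 0.244). The interaction was 0.63 (SE 0.27, adjusted p = 0.972).

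**Figure D4:**
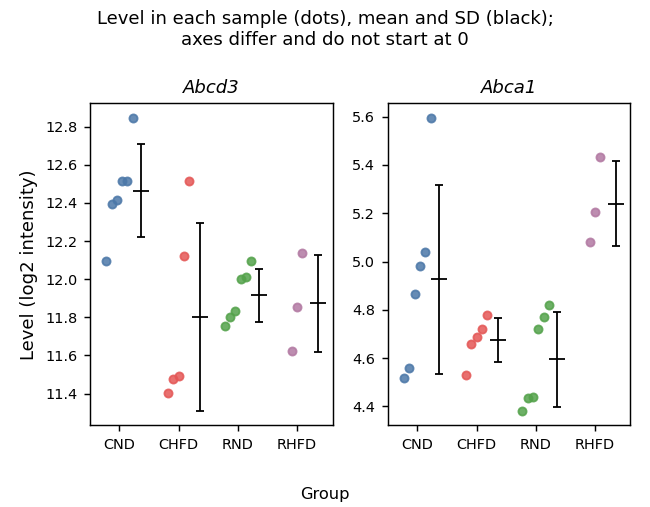
Level (log2 intensity, y axis) of Abcd3 and Abca1 in each sample (dots), with the mean and SD in black. Axes differ between panels. Abcd3 runs from 12.09 to 12.85 in CND and from 11.75 to 12.09 in RND, and Abca1 lies at 5.08 to 5.43 in RHFD against 4.38 to 4.82 in RND.

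The ATPases of ribosomes, Abce1, Abcf2 and Abcf3, did not pass in any comparison. Abce1, which splits ribosomes after termination, was detected on 19 arrays and had mean levels from 4.96 ± 0.21 (SD, n = 6) in RND to 5.23 ± 0.25 (n = 3) in RHFD. Abcf2 differed by 0.42 between RND and CND (SE 0.18, adjusted p = 0.359). Abcf3 differed by 0.02 in controls (95% interval -0.25 to 0.29) and 0.06 in IUGR rats (-0.25 to 0.36) on the diet. Of the channel regulators, Abcc8, the sulfonylurea receptor of beta cells, was detected on 13 arrays and did not pass, and Abcc9 was not tested.

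The Abcg3 group consists of rodent genes related to Abcg2, and all 5 of its genes on the array were tested. In the RefSeq order of protein-coding genes on rat chromosome 14 they are neighbours or near neighbours. The 250 upstream bases of Abcg3l1 and Abcg3l4 are shown because they were nearly identical, with 246 bases in common (98.4%). Capitals mark the 4 bases of each that are not paired with the same base of the other.
Abcg3l1 (GRCr8 chr14:5481877-5482126, minus strand): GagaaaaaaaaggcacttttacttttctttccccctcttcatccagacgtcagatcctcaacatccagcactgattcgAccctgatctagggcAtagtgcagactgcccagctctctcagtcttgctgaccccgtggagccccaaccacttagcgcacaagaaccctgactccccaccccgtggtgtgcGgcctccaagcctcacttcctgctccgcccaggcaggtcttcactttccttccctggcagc
Abcg3l4 (GRCr8 chr14:4890062-4890311, minus strand): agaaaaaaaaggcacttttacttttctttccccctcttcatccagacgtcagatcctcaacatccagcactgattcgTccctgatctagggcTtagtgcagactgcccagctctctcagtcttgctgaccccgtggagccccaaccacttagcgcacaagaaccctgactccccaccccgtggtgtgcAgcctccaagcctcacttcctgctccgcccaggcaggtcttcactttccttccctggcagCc

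Other pairs of the group shared between 46.4% (Abcg3 and Abcg3l3) and 88.8% (Abcg3l2 and Abcg3l4) of these bases. Probe sequences were not used here, so cross-hybridization between such relatives was not tested, and the values of each of these probes are uncertain to that extent. No Abcg3 probe passed. Abcg3l1 had mean levels of 5.78 ± 0.34 (SD, n = 6) in CND and 5.73 ± 0.46 (n = 6) in RND. CHFD gave 5.49 (10B), 5.55 (22B), 6.45 (28B), 6.45 (4A) and 6.45 (8B), and RHFD 6.33 (21B), 6.13 (25B) and 6.08 (3A). Its averaged diet difference was 0.37 (SE 0.17, adjusted p = 0.303).

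Abcg3 was detected on 6 arrays, 0 of CND, 2 of CHFD, 1 of RND and 3 of RHFD. It just met the filter of 6 arrays, mostly through high-fat arrays, so its diet differences are not independent of the filter. Its averaged diet difference was 0.39 (SE 0.16, adjusted p = 0.218), and in IUGR rats it was 0.52 (SE 0.24, adjusted p = 0.477). Without RHFD 3A the Abcg3 difference in IUGR rats was 0.11 (adjusted p = 0.999), and without background correction 0.19 (0.55). Among the RHFD samples, 3A stood at 5.91 and the others at 4.60 (21B) and 4.80 (25B). On chow Abcg3l4 differed by -0.37 between IUGR and control rats (SE 0.17, adjusted p = 0.385), by -0.09 on chip 1 and -0.65 on chip 2. Within the high-fat diet Abcg3l2 differed by -0.13 between IUGR and control rats (SE 0.24, adjusted p = 1). Abcg3l3 was detected on 21 arrays.

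In control rats on the high-fat diet 2 of 25 ABC probes passed, Abcg1 higher and Abcc5 lower. Over all tested probes 1.3% passed, 0.961% higher and 0.334% lower. At an unadjusted p under 0.05 the counts were 6 of 25 ABC probes and 10.8% of all. The median log2 difference was -0.02 for the ABC probes and -0.00160 for all, with 10 ABC probes positive and 15 negative.

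In IUGR rats 0 of 25 passed in limma, against 0.883% of all tested probes, and 5 of 25 had an unadjusted p under 0.05, against 9.56%. Averaged over birth groups 8 of 25 had an unadjusted p under 0.05, against 13.9% of all. Both counts include Abcg3, which met the detection filter mostly through high-fat arrays. The median of the ABC probes was -0.03 in IUGR rats and 0.04 averaged. The comparisons in controls and in IUGR rats share no samples, while the averaged one uses both. They are not fully independent, because all groups share 1 estimate of the spread and 1 chip term. A sample of 1 birth group can therefore change a call in the other.

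**Figure D5:**
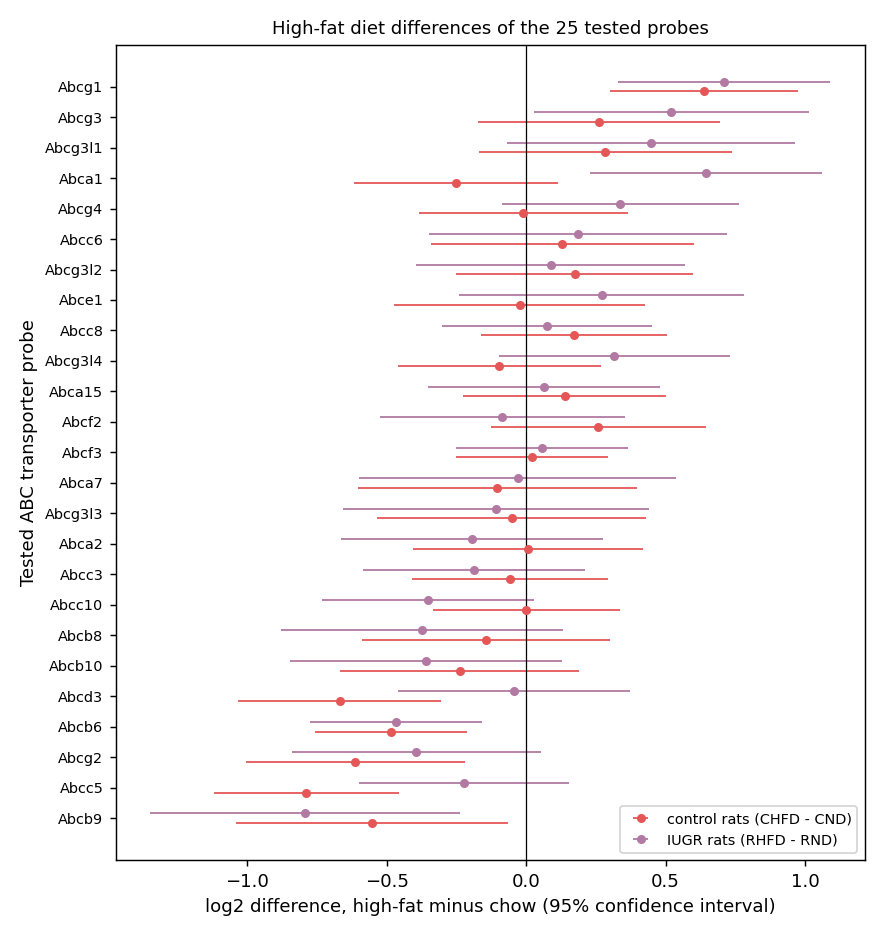
Diet difference (log2, high-fat minus chow, x axis) of the 25 tested ABC probes (y axis) in control rats (CHFD minus CND) and IUGR rats (RHFD minus RND), with 95% confidence intervals from limma. Abcg1 lies at 0.64 and 0.71, Abcb9 at -0.55 and -0.79, and Abca1 at -0.25 in controls and 0.65 in IUGR rats.

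For birth status, 0 of 25 ABC probes passed on chow and 0% of all did. At an unadjusted p under 0.05 there were 4 ABC probes and 12.1% of all. The smallest of these were Abcd3, Abcf2 (0.42) and Abcc5 (-0.36, SE 0.15, adjusted p = 0.361), and Abcg1 differed by 0.24 (SE 0.16, adjusted p = 0.538). On the high-fat diet 0 of 25 passed, against 0.00981% of all (1 probe), and 1 ABC probe, Abca1, had an unadjusted p under 0.05, against 1.04% of all. There Abcg1 differed by 0.31 (SE 0.19), Abcg3 by 0.29, Abcb9 by -0.29 and Abcc10 by -0.16, each at an adjusted p of 1. For Abcg1, 3 of 3 RHFD samples lay above every CHFD sample, but the share of all tested probes that did so was not counted. For the interaction 0 of 25 and 0% of all passed, and 3 ABC probes had an unadjusted p under 0.05, against 4.05% of all: Abca1, Abcd3 and Abcc5. The interactions of Abcf2 (-0.34) and Abcb8 (-0.23) did not pass.

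Genes that act beside the ABC transporters were read from lists chosen with earlier results of these data known. The transporter associated with antigen processing is itself an ABC protein under another symbol. Averaged over birth groups Tap2 rose on the high-fat diet by 0.71 (SE 0.16, adjusted p = 0.0083), and Tap1 differed by 0.29 (SE 0.14, adjusted p = 0.377). In this comparison 2.54% of all tested probes passed as higher and 1.74% as lower. Of 11 tested probes for sterol and bile acid partners 1 was higher and 0 lower. This was Apoe, a lipid acceptor made by macrophages, which rose by 1.09 (SE 0.20, adjusted p = 0.00121) and was detected on 15 arrays. In IUGR rats Apoe rose by 1.56 (SE 0.29, adjusted p = 0.00874 in limma), while in control rats 0 of these 11 probes passed. Scarb1, the high-density lipoprotein receptor, differed by -0.35 (adjusted p = 0.343).

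On the high-fat diet averaged over birth groups, 1.74% of all tested probes passed as lower and 2.54% as higher. Of 20 tested probes for conjugating enzymes, whose products ABC pumps export, 3 were lower and 0 higher, with a median of -0.25. They were the glucuronosyltransferase Ugt1a6 (-0.69, SE 0.13, adjusted p = 0.00135) and the glutathione transferases Gsta4 (-0.50, adjusted p = 0.021) and Gsta2 (-0.63, adjusted p = 0.0215). In IUGR rats Ugt1a6 fell by 0.87 (SE 0.19, adjusted p = 0.0241 in limma), while in control rats 0 of these 20 probes passed. Of 4 tested phase I enzymes, Cyp1a1, a target of the aryl hydrocarbon receptor, rose by 1.38 (SE 0.35, adjusted p = 0.0215), and Cyp4b1 fell by 1.11 (SE 0.27, adjusted p = 0.0182).

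None of the 14 tested probes for nuclear receptors and sensors that regulate ABC genes passed in limma in a diet comparison. The smallest adjusted p averaged over birth groups were those of Nfe2l2 (0.39, 0.236), Rxra (0.27, 0.385) and Nr1h3, the liver X receptor alpha (0.27, 0.4). None of 11 probes for heme and iron-sulfur genes passed, with a median of -0.16 and Urod at -0.34 (adjusted p = 0.211). None of 9 for peroxisomal oxidation, 6 for translation recycling or 4 for uptake carriers passed, with Slc22a3 at -0.49 (adjusted p = 0.287). In the 3 comparisons of birth status 0 probes of these lists passed.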

How the data were processed

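Per the file headers, the deposited table holds for each of 22523 probes and 24 arrays a mean signal intensity, exported from GenomeStudio per the submitters' processing notes, version not given in the sources used here. These deposited intensities are whole numbers that had been neither background-subtracted nor normalized. The same deposited table gives a detection p-value per probe and array. The authors also deposited a table of quantile-normalized intensity values, used here as an alternative. Per the labels' protocols, biotin-labelled cRNA was made from total RNA.

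The neqc function corrected the background and quantile normalized the intensities in limma 3.58.1 (R 4.3.3, statmod 1.5.0), with an offset of 16 and the negative control level estimated through the detection p-values, and gave log2 values. Probes with a detection p under 0.05 on at least 6 arrays were tested (10193 probes). A limma model held the 4 groups and the chip, with arrays sharing a title number as a random block (estimated correlation 0.812), and was checked on simulated data. The diet effect was tested in controls, in IUGR rats and averaged over both, the birth effect on each diet, and their interaction. The Benjamini-Hochberg method adjusted p within a comparison over all tested probes, and an adjusted p under 0.05 passed. Means and SDs are over samples, after averaging arrays that share a title number. Symbols came from the platform annotation (0 probes with several symbols, 8730 with none), and all 41 were current in RefSeq. The number of arrays limits the precision.

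The members and the 19 gene lists were chosen with earlier results of these data known. Named were members passing in any comparison, the 3 with the smallest p in each direction of each comparison, the 5 brightest, and a list of well-known transporters irrespective of values. Of the gene lists, members that passed and up to 3 by smallest p could be named. The alternatives covered background correction, scaling, detection filter, model, chip and single samples.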

Additional observations from a re-analysis of the deposited data

Results flagged for a closer look

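A single sample stood apart from its group in 3 of 75 cases, each case being a tested ABC probe in a group of 5 or 6 samples. Chance alone is expected to give about 1 in 20. In CHFD, Abca2 was lowest in sample 22B, at a level of 5.03, with the next sample at 5.72. In CHFD, Abcc3 was highest in 4A, at 12.17 against 11.76 for the next. In CND, Abcf3 was highest in 36B, at 9.57 against 9.02 for the next. None of these probes passed in any comparison.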

How the results depend on the processing

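Over 30 alternatives the 37 named ABC differences gave 1094 values, of which 1021 kept direction and side of the threshold, 56 no longer passed, 14 newly passed and 3 turned direction. Turned were 2 differences between IUGR and control rats on the high-fat diet that had not passed: Abcg3l2, 0.10 on chip 2 and 0.13 without RHFD 25B (range -0.29 to 0.13 without single samples), and Abcg3, -0.12 without RHFD 3A (range -0.12 to 0.54). The causes were not tested.

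The count of ABC probes that passed averaged over birth groups was 5, and was 0 on chip 1, 1 on chip 2 and 2 to 6 without single samples (2 without RHFD 21B, 3 without CHFD 28B or RHFD 25B). In controls it was 2, and was 1 on chip 1 or with the stricter filter (12 arrays), 0 on chip 2 or with only the compared groups, and 1 to 4 without single samples (4 without RND 17B). The value of 1 came without CHFD 28B or 8B, CND 14A, 18A, 32B or 38B, any RHFD sample, or RND 19B, 33B, 37B or 39B. In IUGR rats it was 0, 1 with no filter, and 0 to 1 without single samples (1 without RND 17B). In the 3 birth status comparisons it stayed at 0 to 0 without single samples.

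Of all probes, 132 passed in controls, 75 under median scaling, 5 on chip 2, 78 with only the compared groups and 80 to 198 without single samples (80 without CND 18A, 83 without CHFD 8B). In IUGR rats 90 passed, 57 without background correction or with the authors' deposited normalized values, 54 under median scaling, 43 with arrays of a title number averaged, 12 on chip 1, 31 on chip 2, 151 with only the compared groups and 8 to 110 without single samples (without RHFD 25B 8, RHFD 3A 17, RND 35B 37, RND 37B 54). Averaged, 436 passed, 126 on chip 1, 132 on chip 2 and 246 to 536 without single samples (246 without RHFD 3A, 282 without RHFD 21B). Median scaling moved the median of all probes by -0.10 and gave 155 higher and 224 lower averaged, against 259 and 177, with Abcd3 added to the same 5 ABC probes. In controls it gave 38 higher and 37 lower, against 98 and 34, and in IUGR rats 28 and 26, against 57 and 33. For birth status on chow 0 passed, 3 under median scaling or on chip 1, 2 with no filter, 1 with arrays averaged or no chip term, and 0 to 3 without single samples. On the high-fat diet 1 passed, 0 with arrays averaged or on chip 1, 2 with only the compared groups, and 0 to 3 without single samples. For the interaction 0 passed, 2 on chip 1 and 0 to 3 without single samples.

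With only CND and CHFD, the arrays of CHFD 10B were averaged. No paired analysis was possible because the groups share no title number.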
